A study of Rattus norvegicus with 32 samples.

Results

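Il2, Ifng and Socs1 encode 2 T cell cytokines and an inhibitor of the signal that both cytokines send. They are 3 of the 5022 genes that a spotted rat array named by a single symbol, and each was measured by 1 probe printed as 2 spots. The members were chosen by their measured log2 ratios in these lungs: Il2 and Socs1 for their differences from sham at 3 h after hemorrhage, Socs1 also at 24 h, and Ifng at 48 h. In those 3 comparisons their values are therefore given as a description, with no test. Tests are given at the other times, 1, 6, 16 and 72 h against sham, and between sham and control. All 7 times were compared with the same sham arrays, so the tested times are not independent of the choosing ones.

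IL-2 is a growth and survival cytokine made mainly by activated T cells, and its transcription follows the T cell receptor through calcineurin, NFAT, AP-1 and NF-kB. IFN-gamma, made by T cells and natural killer (NK) cells, activates macrophages and raises antigen presentation; IL-12 and IL-18 promote its production. Both cytokines act through JAK kinases and STAT factors, and SOCS1 is induced by that signal and blocks the JAKs. In lung, macrophages and epithelial cells as well as lymphocytes can answer IFN-gamma, and SOCS1 restrains that answer.

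The study followed the lung of male Sprague-Dawley rats of 280 to 300 g over 72 h after blood loss. Each of 32 arrays compared RNA of 1 lung sample with a pooled RNA of several organs, among them lung and spleen, from untreated rats. Control rats (3 arrays) had no surgery and no handling. Sham rats (6 arrays) carried arterial catheters and a telemetry device and were not bled. The hemorrhage groups carried the same instruments and lost 40% of their estimated blood volume after 7 to 10 days of recovery. Their lungs were taken at 1, 3, 16, 24, 48 or 72 h (3 arrays each) or 6 h (5 arrays). There was 1 sham group for all times. The labels speak of RNA from each lung but tie no array to a numbered animal, so p-values measure the spread between these samples.

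Values are log2 ratios of lung over pool, centred so that the median of each array is 0. A level of 0 is that of the array's middle probe, and a difference of 1 between groups is a doubling. The direction was read from the values, since the labels do not give the dyes: the median of 11 lung markers lay between 0.88 and 2.38 on 30 arrays. On sham replicate 2 and 16 h replicate 3 it was -0.97 and 0.64. Those 2 arrays also had medians of 2.75 and 2.18 over 18 liver markers, against -1.27 to 0.41 on the other 30. They were left out of group means and comparisons, as the choice of members had left them out, and their values are named where they bear on a result. That leaves 5 sham arrays and 2 arrays at 16 h. Their small number limits the precision. In whole lung, fewer cells of a type and less RNA per cell cannot be told apart.

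Because Il2 and Ifng answer activation of T cells and Socs1 answers cytokine signalling, the stretch just before each gene's start is shown as context for the named regulators. The sequences are from RefSeq in the rat build GRCr8, where all 3 members were found. They cover 250 bases before the start, in the direction of the gene. Capitals mark matches to 6 motifs, searched on both strands with overlaps allowed. The NFAT core was searched as GGAAA. The AP-1 site was taken as TGANTCA and the STAT site as TTCNNNGAA, where N is any base. An interferon-response element had to hold GAAA, any 2 bases, and GAAA once more. Letters for the TATA box were TATAAA. Those for the GC box were GGGCGG.
Il2, chr2:121937673-121937922, minus strand: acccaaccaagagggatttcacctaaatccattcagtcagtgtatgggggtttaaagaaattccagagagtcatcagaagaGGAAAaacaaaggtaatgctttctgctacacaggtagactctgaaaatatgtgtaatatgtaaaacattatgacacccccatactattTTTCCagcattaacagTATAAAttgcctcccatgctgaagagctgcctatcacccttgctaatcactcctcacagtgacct
Ifng, chr7:55788930-55789179, plus strand: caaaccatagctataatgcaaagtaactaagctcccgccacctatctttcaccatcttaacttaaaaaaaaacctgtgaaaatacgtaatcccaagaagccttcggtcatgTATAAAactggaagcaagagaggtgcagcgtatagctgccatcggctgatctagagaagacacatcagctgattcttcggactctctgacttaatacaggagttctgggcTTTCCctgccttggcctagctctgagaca
Socs1, chr10:5389324-5389573, plus strand: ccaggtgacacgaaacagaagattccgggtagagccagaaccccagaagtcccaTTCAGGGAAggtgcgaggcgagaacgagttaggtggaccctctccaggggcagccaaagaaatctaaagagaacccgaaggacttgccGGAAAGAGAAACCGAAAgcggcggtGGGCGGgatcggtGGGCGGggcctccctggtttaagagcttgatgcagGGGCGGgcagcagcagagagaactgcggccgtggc

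The stretches of the cytokine genes and of the inhibitor hold different matches. The Il2 stretch held 2 matches to the NFAT core, on either strand at 169 and 81 bases before the start, and 1 TATA box at 65 bases. The Ifng stretch held 1 TATA box at 139 bases and 1 NFAT core at 29 bases, between the TATA box and the start. The start is that of the annotated gene, and where transcription begins was not tested. The Socs1 stretch held none of the TATA letters but 3 GC boxes, 1 STAT site at 196 bases before the start and 2 interferon-response elements at 107 and 101 bases, which share letters with each other and with its NFAT core. Of 33469 rat promoter stretches of the same length, 3.41% held an interferon-response element, 7.67% a STAT site, 30.5% a GC box, 12.9% a TATA box and 56.9% an NFAT core. No stretch of the 3 members held the AP-1 letters, which 6.34% of all stretches held. Sites that depart from those letters would be missed, so this does not show that an AP-1 site is absent. No NF-kB motif was searched. The share of G and C was 40.4% in Il2, 44.4% in Ifng and 60.4% in Socs1, against a median of 51.2%. A match is a run of letters, not a site shown to be bound. The genes themselves lie at chr2:121932968-121937672 (Il2), chr7:55789180-55793216 (Ifng) and chr10:5389574-5391265 (Socs1).

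Il2 was the member with the widest range. In control lung it lay at -2.22, -2.23 and -1.50, and in sham lung at -2.84, -1.75, -2.10, -1.58 and -1.66 (replicates 1, 3, 4, 5 and 6). The group means were -1.98 ± 0.42 (SD, n = 3) and -1.98 ± 0.52 (SD, n = 5), both far below the array median, and the difference of -0.00 ± 0.39 (SE) did not pass the test (limma adjusted p = 1). The left-out sham array read -1.34.

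At 3 h the Il2 arrays read 1.11, 0.29 and -1.03, with a mean of 0.12 ± 1.08 (SD, n = 3). All 3 lay above every sham array, and they differed among themselves more than the arrays of any other group. The mean was 2.11 ± 0.39 (SE) above sham, a 4.31-fold difference, as a description. Of all 6112 probes tested, 5.68% had 3 h arrays wholly above the sham arrays and 1.13% were called higher by limma at an adjusted p under 0.05; Il2 was chosen at this time, so its place among them is no result.

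Replicate 1 set much of that mean and of its spread. Its 2 Il2 spots read 3.20 and -0.98, a gap of 4.18 that only 0.498% of the probes on that array exceeded. Replicate 2 read -0.22 and 0.81, and replicate 3 read -1.0 and -1.06. The lower spot of each pair, -1.06 to -0.22, lay above the higher spot of every sham pair, at most -1.56. These spots are the values that chose Il2, so their separation is a description and no further support. Computed from the first spots alone the difference from sham was 2.78, from the second spots alone 1.44, and without replicate 1 it was 1.61 ± 0.41 (SE). Without replicate 3 it was 2.68.

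From 6 to 48 h Il2 stood between the sham level and that at 3 h. The 5 arrays at 6 h read -1.12, -1.22, -1.13, -0.23 and -0.92, and all lay above all sham arrays, which 3.16% of the probes did. The difference was 1.06 ± 0.34 (SE) and did not pass the test (limma adjusted p = 0.119, the range over the alternatives being 0.0672 to 0.337). The arrays at 1 h, -0.99, -2.0 and -1.40, overlapped with sham, and the difference of 0.52 ± 0.39 (SE) did not pass either (limma adjusted p = 0.66).

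The 2 arrays at 16 h read -1.11 and -1.34, above all sham arrays, as 12.1% of the probes were. Their difference was 0.76 ± 0.45 (SE, limma adjusted p = 0.449); the left-out 16 h array read -0.60. With both left-out arrays in the fit the difference was 0.86. The 24 h arrays read -1.41, -0.50 and -1.32, above sham by 0.91 ± 0.39 (SE) without overlap, where 4.88% of the probes were wholly above. The 48 h arrays read -1.62, -0.96 and -0.67 and overlapped with sham, with a difference of 0.90 ± 0.39 (SE). These last 2 differences are descriptions. Were the left-out sham array counted, the 16 h and 24 h arrays would overlap with sham and those at 3, 6 and 72 h would not.

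At 72 h Il2 rose, in a comparison that had not chosen it but used the same sham arrays. The arrays read -0.94, -0.37 and 0.10, against at most -1.58 in sham. The mean of -0.41 ± 0.52 (SD, n = 3) was 1.58 ± 0.39 (SE) above sham, 2.99-fold, with a limma adjusted p of 0.0211, and all 3 arrays were above all 5 sham arrays. With the liver-rich sham array included the change was 1.47 (adjusted p = 0.0325). The call was lost without 72 h replicate 2 (1.56, adjusted p = 0.0934), without replicate 3 (1.33, adjusted p = 0.163), and from the first spots alone (1.79, adjusted p = 0.0657). At this time 2 of the 3 members were called, against 5.87% of all probes: Il2 among the 2.05% called higher and Ifng among the 3.83% called lower. The members were chosen for differences from these same sham arrays, so their count cannot be weighed against probes that were not chosen. Arrays wholly above sham were found for 9.31% of the probes at 72 h. From the highest mean to the lowest the Il2 groups ran 3 h, 72 h, 6 h, 24 h, 48 h, 16 h, 1 h, control and sham. The single step between neighbours larger than the greater SD was that from 1 h to control (-1.46 against -1.98), and those arrays overlapped.

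**Figure D1:**
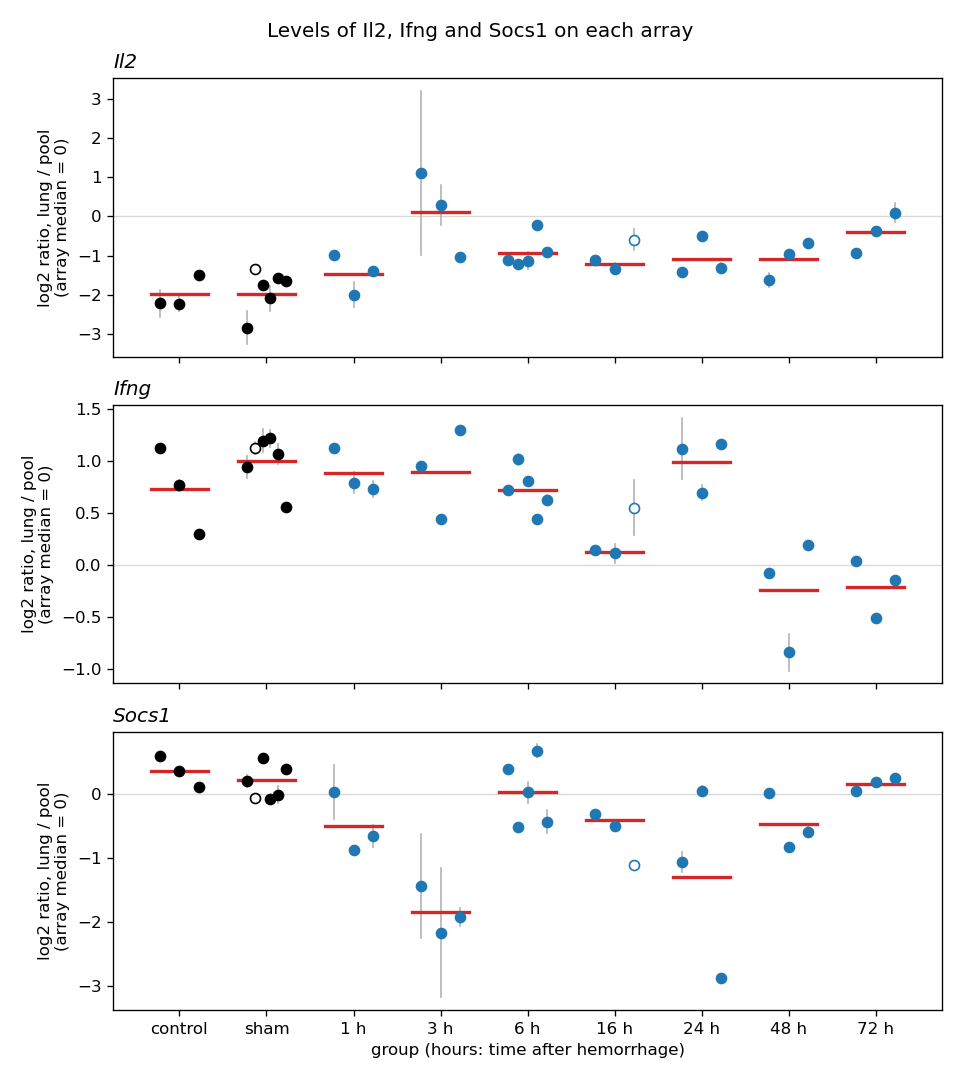
Log2 ratio of lung over pool (array median 0) of Il2, Ifng and Socs1 on each of 32 arrays by group; filled points are the mean of the 2 spots, grey bars join those spots, red lines are group means, and open points are the 2 left-out arrays. By group mean Il2 is highest at 3 h and 72 h, Ifng lowest at 48 h and 72 h, and Socs1 lowest at 3 h. The lowest single Socs1 array is 24 h replicate 3, at -2.88.

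Ifng followed another course. Unlike Il2 it was above the array median in control and sham lung: the control arrays read 1.12, 0.77 and 0.30, and the sham arrays 0.94, 1.19, 1.22, 1.06 and 0.56. The means were 0.73 ± 0.41 (SD, n = 3) and 0.99 ± 0.27 (SD, n = 5), with a difference of 0.26 ± 0.25 (SE) that did not pass the test (limma adjusted p = 1). The left-out sham array, at 1.13, lay among the others.

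Early after hemorrhage Ifng overlapped with sham. It read 1.12, 0.79 and 0.73 at 1 h, 0.95, 0.44 and 1.29 at 3 h, and 0.72, 1.01, 0.81, 0.44 and 0.63 at 6 h. Against sham the differences were -0.11 ± 0.25 (SE) at 1 h (limma adjusted p = 0.888) and -0.27 ± 0.21 at 6 h (adjusted p = 0.49). At 3 h, when Il2 was highest, Ifng differed from sham by -0.10 ± 0.25 (SE).

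The arrays at 16 h read 0.15 and 0.11, both below every sham array, as 11.4% of the probes were. The difference of -0.87 ± 0.28 (SE) did not pass the test (limma adjusted p = 0.189); with the left-out arrays, one of which read 0.55 at 16 h, it was -0.75 (adjusted p = 0.0906), and with array weights it was -0.85 and passed (adjusted p = 0.045). At 24 h Ifng was back in the range of sham, at 1.12, 0.69 and 1.16, with a difference of -0.00 ± 0.25 (SE). The group means thus did not fall steadily with time.

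At 48 h the Ifng arrays read -0.08, -0.84 and 0.19, all below the lowest sham array at 0.56. The mean was 1.24 ± 0.25 (SE) lower on the log2 scale, 2.36-fold, as a description; 8.07% of the probes lay wholly below sham at this time and 0.884% were called lower. At 72 h, which had not chosen it but used the same sham arrays, the arrays read 0.04, -0.51 and -0.15. Ifng fell by 1.20 ± 0.25 (SE) on the log2 scale, 2.3-fold (limma adjusted p = 0.00723). All 3 arrays lay below all 5 sham arrays, as did those of 9.18% of the probes. Without 72 h replicate 2 the call was lost (-1.05, adjusted p = 0.0727). With all 32 arrays it was kept (-1.22, adjusted p = 0.00857).

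The means at 48 h and 72 h, -0.24 ± 0.53 and -0.21 ± 0.28 (SD, n = 3 each), did not differ beyond their spread. In order from the highest, sham, 24 h, 3 h, 1 h, control and 6 h were neighbours within 1 SD and overlapped. The step from 6 h to 16 h (0.72 against 0.13) and that from 16 h to 72 h (0.13 against -0.21) exceeded the larger SD of each pair, without overlap. Both rest on 2 arrays at 16 h. The left-out 16 h array, at 0.55, lay above the lowest 6 h array, at 0.44, so with it 6 h and 16 h would overlap.

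Socs1 was near the array median in control and sham lung. The control arrays read 0.59, 0.37 and 0.11 and the sham arrays 0.21, 0.57, -0.07, -0.01 and 0.39, with means of 0.36 ± 0.24 (SD, n = 3) and 0.22 ± 0.27 (SD, n = 5). Sham and control overlapped, and the difference of -0.14 ± 0.40 (SE) did not pass the test (limma adjusted p = 1). The left-out sham array read -0.06.

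At 3 h Socs1 was low on all 3 arrays, at -1.43, -2.17 and -1.92. The mean of -1.84 ± 0.37 (SD, n = 3) was 2.06 ± 0.40 (SE) below sham on the log2 scale, 4.16-fold, as a description. Arrays wholly below sham were found for 5.09% of the probes and 1.85% were called lower, and again Socs1 was chosen here. Its spots diverged as well: replicate 1 read -2.25 and -0.62, replicate 2 -3.19 and -1.15, and replicate 3 -1.78 and -2.06. The higher spot of each pair, at most -0.62, was below the lower spot of every sham pair, at least -0.14. This too describes the values that chose Socs1. The difference was -2.66 from the first spots and -1.46 from the second. The Il2 and Socs1 readings at 3 h thus shared the array with the largest Il2 spot gap (replicate 1) and the array whose paired spots correlated least over all probes, 0.618 (replicate 2). Whether spot quality had a part in either value was not tested.

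The arrays at 24 h did not form a group: Socs1 read -1.07, 0.05 and -2.88. The mean of -1.30 ± 1.48 (SD, n = 3) was 1.52 ± 0.40 (SE) below sham on the log2 scale, with overlap. That SE pools the spread of all groups in the fit and understates the scatter of these 3 arrays. The 24 h mean rests on replicate 3, both spots of which read -2.88. Without that array the difference was -0.72, and without replicate 2, the one within the sham range, it was -2.19. At this time 3.52% of all probes were called, with 53 higher and 162 lower; without centring there were 32 higher and 404 lower, since the median of all probes then shifted by -0.15.

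At the other times Socs1 was closer to sham. It read 0.04, -0.88 and -0.65 at 1 h (change -0.71 ± 0.40 SE, limma adjusted p = 0.54) and 0.39, -0.51, 0.03, 0.68 and -0.43 at 6 h (-0.18 ± 0.35 SE, adjusted p = 0.802). The 16 h arrays read -0.32 and -0.49, both below sham, as 11.4% of the probes were. Their change was -0.62 ± 0.46 (SE, limma adjusted p = 0.561). The left-out 16 h array was lower still, at -1.12, and with it and the left-out sham array the change was -0.81.

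At 48 h Socs1 read 0.02, -0.83 and -0.59, a difference of -0.68 ± 0.40 (SE) with overlap. At 72 h it read 0.05, 0.20 and 0.26, within the sham range, and the change of -0.05 ± 0.40 (SE) did not pass the test (limma adjusted p = 0.963). Il2 rose and Ifng fell at that time. In the order of the group means no step between neighbours of Socs1 exceeded the larger SD, so the position of any group relative to the next is not settled.

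**Figure D2:**
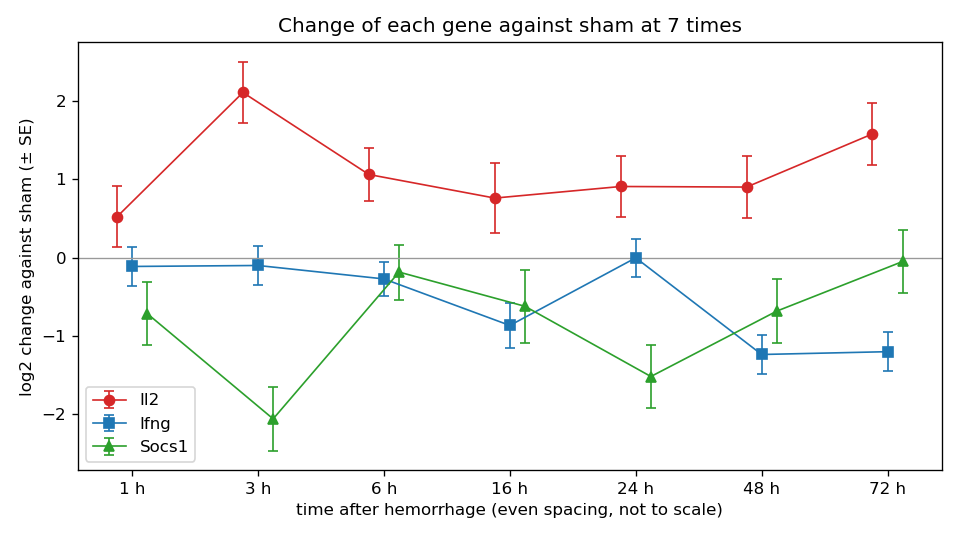
Log2 change of each gene against the 5 sham arrays at 7 times after hemorrhage (x axis, evenly spaced), with the SE of the limma fit as bars. The SE pools the spread of all groups and does not show the scatter of a single group. Il2 lies above 0 at every time, with 2.11 at 3 h and 1.58 at 72 h; Ifng lies near 0 at 24 h and at -1.24 and -1.20 at 48 and 72 h; Socs1 lies at -2.06 at 3 h and -0.05 at 72 h.

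The agreement of the 2 spots differed between the members over the 32 arrays, as a description of the probes. The spots of Ifng lay within 0.59 of each other on every array (r = 0.946). Those of Il2 had a median gap of 0.13 but exceeded 1 on 2 arrays, both at 3 h (r = 0.626, Spearman's rho = 0.925). Those of Socs1 had a median gap of 0.12 and also exceeded 1 on 2 arrays at 3 h (r = 0.855). All 64 spots of each member carried a value, and the deposited ratios ran from 0.1 to 8.72 for Il2, 0.47 to 2.56 for Ifng and 0.1 to 1.6 for Socs1.

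**Figure D3:**
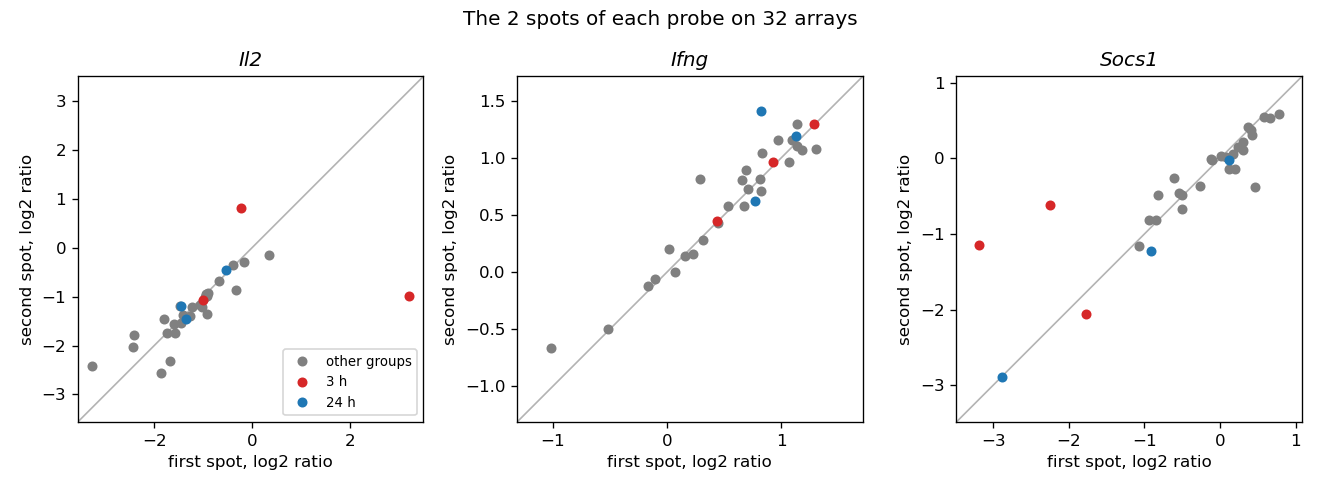
First spot against second spot of the Il2, Ifng and Socs1 probes (log2 ratio, array median 0) on 32 arrays, with 3 h in red, 24 h in blue, the other groups in grey and the line of equality. The Il2 and Socs1 points far from the line are 3 h arrays, with gaps of 4.18 and 2.04 at most; the 2 spots of Ifng differ by at most 0.59.

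The partners are the genes that carry, induce or limit the members' signals. Of 20 named receptors, kinases, STATs, inducers and SOCS genes 17 were tested, and 1 of 136 tests was called (8 comparisons each, limma adjusted p under 0.05). At 3 h this was 1 of 17, against 2.98% of all probes, and in each of the other 7 comparisons it was 0 of 17, against 0% to 5.87%; with so few genes neither count stands apart from its background. The called gene was Il18, an inducer of IFN-gamma, which rose at 3 h by 1.51 ± 0.41 (SE, adjusted p = 0.0418). Its 3 h arrays lay between 0.10 and 1.42, and the sham arrays between -1.09 and -0.24. The call was kept in 2 of 8 fits that left out 1 array (adjusted p at most 0.144, without 3 h replicate 1) and in 7 of 12 other alternatives. The subunits of IL-12, the other inducer, differed from sham at 3 h by 0.55 (Il12a, adjusted p = 0.273) and 0.31 (Il12b, adjusted p = 0.772).

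Among the receptors, Il2ra, the high-affinity IL-2 receptor chain, differed from sham by 0.23 ± 0.32 (SE) at 3 h (adjusted p = 0.691). At 72 h, when Il2 rose, the Il2ra arrays lay above all sham arrays, as 9.31% of the probes did. The difference was 0.90 ± 0.32 (SE, limma adjusted p = 0.0961). Il2rb, the chain shared with the IL-15 receptor, differed by 0.19 at 72 h (adjusted p = 0.804). Neither passed the test. The IFN-gamma receptor chains did not pass at any time: Ifngr1 ranged from -0.60 at 16 h to 0.26 at 3 h, and Ifngr2 from -0.78 at 1 h to 1.07 at 24 h (adjusted p = 0.28).

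Downstream of the receptors, Stat5a, a main STAT of the IL-2 signal, differed from sham by 0.65 at 72 h (adjusted p = 0.0984), while its second probe gave -0.24 (adjusted p = 0.856). Stat3 had its lowest difference, -0.79, at 24 h (adjusted p = 0.139). Irf1, a transcription factor that IFN-gamma induces, differed by 0.64 at 72 h (adjusted p = 0.533), although Ifng fell then. These differences did not pass the test.

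The relatives of Socs1 did not share its low level at 3 h, where Socs2 stood at 1.06 (adjusted p = 0.117), Socs3 at -0.14 (adjusted p = 0.789) and Cish at 0.69 (adjusted p = 0.316) against sham. Socs2, an inhibitor of growth hormone signalling, lay 0.99 to 1.16 above sham at each time from 1 to 48 h and never passed the test (adjusted p 0.106 to 0.337). Those differences rest in large part on sham replicate 1, where Socs2 read -2.39, the lowest of a sham range that reached 0.33. Without that array the Socs2 difference was 0.70 at 1 h, 0.68 at 6 h and 0.73 at 16 h, and against control as the baseline it was 0.51, 0.49 and 0.54. Cish, a target of STAT5, differed by -1.30 ± 0.41 (SE) at 72 h, with a limma adjusted p of 0.0563. Its arrays were all below sham, as 9.18% of the probes were. Against control as the baseline Cish differed by -0.58. It passed in 2 of 8 fits that left out 1 array (72 h replicate 1 or sham replicate 3) and in 4 of 12 other alternatives.

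**Figure D4:**
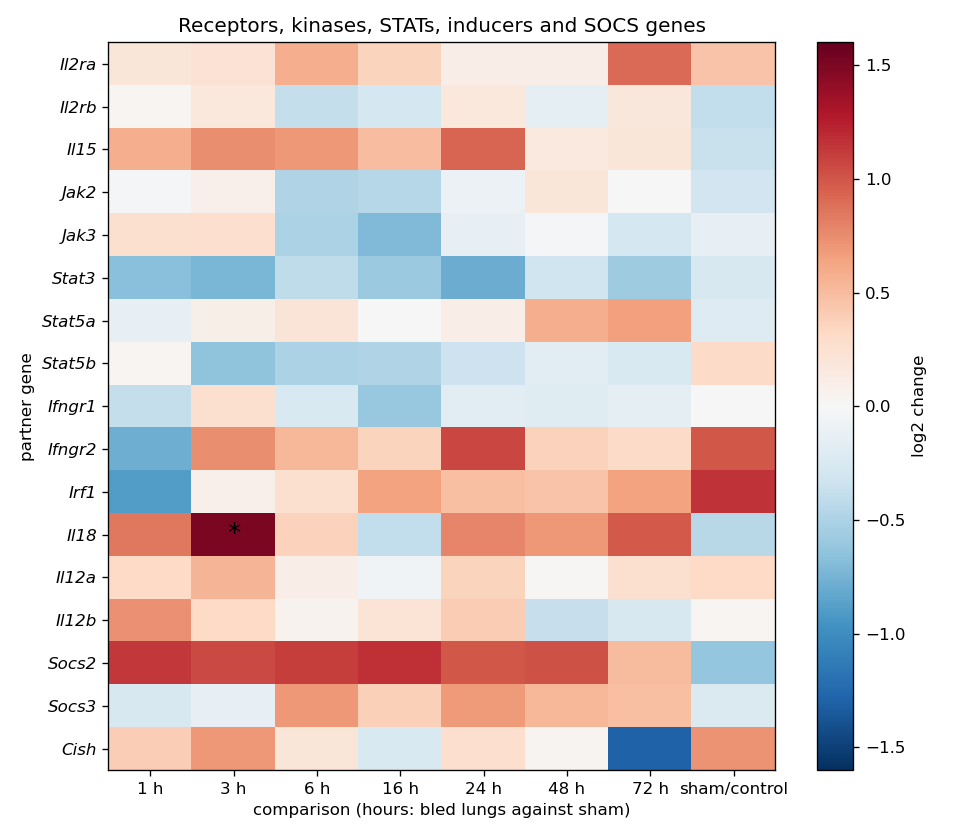
Log2 change of 17 partner genes (rows) in 8 comparisons (columns: 7 times against sham, then sham against control) on a colour scale from -1.6 to 1.6; the star marks a limma adjusted p under 0.05. The single star is Il18 at 3 h, with 1.51, and the darkest blue is Cish at 72 h, with -1.30.

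A wider set of 7 lists covered IL-2 family genes, IFN-gamma induction and targets, JAK, STAT and SOCS genes, the T cell receptor signal, T cell markers, NK cell markers and other leukocyte cytokines. It held 125 tested genes besides the members, each counted by 1 probe, that with values on the most arrays. The background counts every probe. At 3 h 4 of the 125 genes (3.2%) were called, against 2.98% of all probes, a share near that background. Il18 and Psme2, a proteasome activator subunit that IFN-gamma induces, rose (Psme2 by 0.95, limma adjusted p = 0.0183). RT1-Db1, also on the IFN-gamma list, had several probes. A probe of it that was not counted rose by 0.95 (limma adjusted p = 0.0241). Its other probes gave 0.21 and -0.01 (adjusted p = 0.698 and 0.986). Csf2, a myeloid growth factor that activated T cells make, fell by 1.22 on the log2 scale (adjusted p = 0.0393), in the comparison where Il2 was high. Klrh1, an NK cell lectin receptor, fell by 1.38 on the log2 scale (adjusted p = 0.0472). Over all probes 69 were called higher and 113 lower at 3 h; this split became 56 and 151 without centring. After quantile normalization it was 30 and 89.

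The count of 4 at 3 h moved with single arrays: 0 without sham replicate 6, 1 without sham replicate 3 or 5, 2 without sham replicate 1 or 3 h replicate 2, 10 without sham replicate 4 and 11 without 3 h replicate 3. Psme2 was kept in 7 of 8 such fits, Klrh1 in 3, and Csf2 in 2.

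At 24 h 6 of 125 (4.8%) were called, all lower, against 3.52% of all probes, of which 162 of 215 were also lower; the share is near that background. Of 21 genes of the T cell receptor signal 3 fell: Ppp3cb, a calcineurin catalytic subunit, by 1.64, and the AP-1 members Fosl1 and Jun by 1.19 and 0.93 on the log2 scale (limma adjusted p = 0.0418, 0.0121 and 0.0317). Ptprc, the pan-leukocyte CD45, fell by 1.23 (adjusted p = 0.00608), Csf3, the granulocyte growth factor, by 1.40 (adjusted p = 0.0418), and Klra22, an NK cell receptor, by 2.86 (adjusted p = 0.00112). Klra22 was called in all 8 fits that left out 1 array, Fosl1 and Ptprc in 7, and Ppp3cb, Jun and Csf3 in 3. The count was 3 without sham replicate 1, 3 or 5 and 1 without 24 h replicate 3, the array with the lowest Socs1.

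At 48 h 1 of 125 (0.8%) was called, against 1.18% of all probes. Csf2 fell by 1.28 on the log2 scale (limma adjusted p = 0.0452), and was called in 1 of 8 fits that left out 1 array. With the 2 left-out arrays back in the fit no listed gene was called.

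At 72 h 4 of 125 (3.2%) were called, against 5.87% of all probes. Vav1, a signalling protein downstream of the T cell receptor, rose by 1.36 (limma adjusted p = 0.0242). The AP-1 members Fos and Jund fell by 1.00 and 1.37 on the log2 scale (adjusted p = 0.0221 and 0.0218), and Ptprc fell by 1.08 (adjusted p = 0.0124). Each of the 4 was called in 6 of 8 fits that left out 1 array; without 72 h replicate 2 or without replicate 3 none of the 125 was called, and without replicate 1 there were 9. Of the 30 tested genes of IFN-gamma induction and response none was called at 72 h; 14 lay above 0, with a median of -0.14, against 0.02 over all probes.

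At 1 h, 6 h and between sham and control limma called 0 of all 6112 probes, and at 16 h 4 (0.0654%). At an unadjusted p under 0.05 there were 667, 1147, 291 and 847. With array weights the calls were 85, 279, 4 and 167. No listed gene was called in any of these comparisons. The smallest p-values among the lists belonged at 1 h to Cxcl10, a chemokine that IFN-gamma induces, and the inflammatory cytokine Il1b (-1.09 and 0.80, limma adjusted p = 0.281 for both). At 6 h they belonged to Socs2 and Socs3 (1.11 and 0.70, adjusted p = 0.106 and 0.13). At 16 h they were Ptprc and Fos (-0.98 and -1.0, adjusted p = 0.145 and 0.159), and between sham and control the costimulatory receptor Icos and Psme2 (0.90 and 0.63, adjusted p = 0.924 for both).

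Markers of the cells that make IL-2 and IFN-gamma are given beside these values. Of 13 T cell surface markers 0 were called at 3 h, and the per-array median of the list was -0.03 to 0.05, within the sham range of -0.07 to 0.13. That median covers opposed differences, 6 of them above 0. They ran from -0.93 (Cd8a, limma adjusted p = 0.0605) to 2.27 (Cd8b, adjusted p = 0.219). At 72 h that median ran from -0.13 to 0.39, and Ptprc, which all leukocytes carry, was the 1 marker called. Of 18 NK and cytotoxic cell markers 0 were called at 48 h and 72 h, and 13 and 10 had a difference from sham above 0. Their per-array median was -0.01 to 0.35 and 0.09 to 0.39, against -0.37 to 0.17 in sham. Single markers went both ways: Nkg7 differed by -0.64 and -0.55, and Klrc2 by 1.79 and 1.57. Ifng was low at both times, and its relation to these markers was not tested.

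Markers of other cells are given for 72 h, when 5.87% of all probes were called. The per-array median of 11 lung epithelial markers was 0.90 to 0.96, against 1.22 to 2.38 in sham, and 4 of the 11 were called lower and 0 higher. That of 5 macrophage and monocyte markers was -0.74 to -0.38, against 0.16 to 1.00 in sham, with 1 called lower. Of 7 mast cell markers 2 were called higher, of 9 neutrophil markers 1 was higher, and of 6 red cell and 18 liver markers 1 each was higher and 1 each lower. The single B cell marker on the array was not called. Counts of 1 or 2 in lists this short are not read as a change of a cell type. At 3 h, when 2.98% of all probes were called, 1 lung marker and 1 red cell marker were called lower and 1 neutrophil marker and 1 liver marker higher. The part of these values in the Il2, Ifng and Socs1 values was not tested.

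The genes whose 9 group means were most like those of each member were listed as a description; the points share the arrays, and many genes were searched. For Il2 they were Prl3a1, a placental prolactin family hormone (r = 0.957 over 9 groups), Cir1, a corepressor-interacting protein (r = 0.920), and Cyp1a1, the aryl hydrocarbon receptor target (r = 0.907). Over single arrays r was lower, at 0.534, 0.570 and 0.730. For Ifng they were Rab13, a small GTPase (0.938), Smpd3, a neutral sphingomyelinase (0.929), and Gnb2, a G protein subunit (0.926), with 0.851, 0.791 and 0.715 over 30 arrays. For Socs1 they were Erbb2 and Fgfr2, receptor tyrosine kinases (0.976 and 0.970), and Aldh3a1, an aldehyde dehydrogenase (0.957), with 0.742, 0.760 and 0.777 over 30 arrays. None of the 9 was in the 7 lists. Aldh3a1, for example, stood at 0.47 in sham, -0.76 at 3 h, 0.43 at 6 h, -0.44 at 24 h and 0.34 at 72 h, and Rab13 at 0.78 in sham and -0.45 at 72 h.

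**Figure D5:**
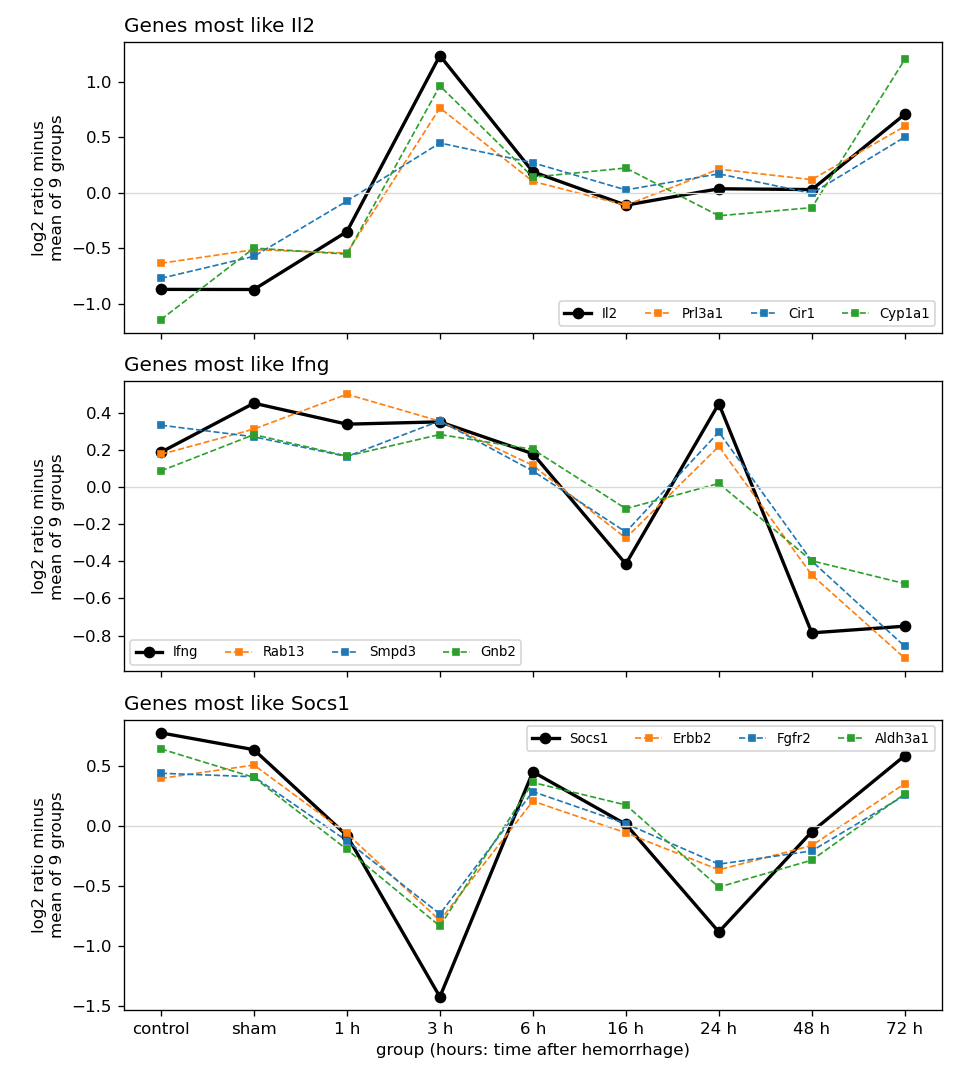
Group means of each member (black) and of the 3 genes most like it (dashed), as log2 ratios minus their own mean over the 9 groups; the x axis gives control, sham and the 7 times. The Il2 set peaks at 3 h and 72 h, the Ifng set is low at 16, 48 and 72 h, and the Socs1 set is low at 3 h and 24 h, with correlations of 0.907 to 0.976.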

How the data were processed

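The data are 2-colour spotted array values of 32 rat lung samples. The authors deposited log2 ratios; the labels' protocols describe RNA of each lung against pooled organ RNA. The dyes, the scanner software and any normalization were not given in the sources used here. Ratios had been rounded to hundredths before the log was taken, which coarsens low ratios. Each array was centred on its median and the spots of a probe were averaged (6344 probes). Of these 5143 had 1 gene symbol in the platform annotation.

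Groups were compared in 1 linear model (limma 3.58.1, R 4.3.3, two-sided moderated tests) over 30 arrays and 9 groups. It covered the 6112 probes that had a value on 2 or more arrays in each group. P-values were adjusted by Benjamini and Hochberg's method within a comparison, and a call is an adjusted p under 0.05. SEs are those of the fit, which pools the spread of a probe over all 9 groups, so they do not show the scatter of a single group. The calculation was tested on simulated data. Promoter stretches were searched with Python 3.11.15.

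The members and gene lists were chosen with earlier results of these data known. Genes were named by a rule: the members, 20 partners, called list genes (up to 4 per list and comparison, or the 2 with the smallest p where none was called), and the 3 genes most like each member. Alternatives were all 32 arrays, quantile normalization, no centring, all probes kept whatever their missing values, spots near the lowest ratio set missing, either spot alone, a trended robust variance, the replicate number as a block, array weights, the 2 groups alone, control as the baseline, and each array left out in turn. Setting spots that differ by over 2 missing was chosen after seeing the data.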

Additional observations from a re-analysis of the deposited data

Results flagged for a closer look

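Single sham arrays stood apart from the other 4 for 3 of the genes named above, by the ratio of the gap to the group's range. Stat3 read -0.23 on sham replicate 5, against -0.02 to 0.03 on the others. Fosl1 read -0.41 on sham replicate 4, against 0.24 to 0.41. Jun read 1.36 on sham replicate 1, against 0.59 to 0.79. In all, 70 groups of 5 arrays were checked, and chance gives such a reading in about 1 of 20 groups. None of the 3 belongs to Il2, Ifng or Socs1. The causes were not tested.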

How the results depend on the processing

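Of 504 values of the 3 members under the alternatives, 474 kept their direction and, where tested, their side of the threshold. At 3, 24 and 48 h the members were not tested, so no threshold applied there. Il2 at 3 h moved to 2.78 with the first spot alone and 1.44 with the second; Socs1 at 3 h moved to -2.66 and -1.46. Il2 at 72 h lost its call with the first spot alone (1.79), and Ifng at 16 h gained one with array weights (-0.85). Values near 0 changed sign. Il2 between sham and control became 0.11 with all 32 arrays, 0.20 with the second spot and 0.29 with array weights. Ifng against control as the baseline became 0.15 at 1 h, 0.16 at 3 h and 0.26 at 24 h, and at 24 h also 0.043 with the second spot and 0.030 with array weights.

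Leaving out 1 array in turn gave Il2 1.61 to 2.68 at 3 h, 1.33 to 1.85 at 72 h and -0.12 to 0.24 between sham and control. Ifng ran from -0.30 to 0.13 at 3 h, -0.11 to 0.14 at 24 h and -1.32 to -1.05 at 72 h. Socs1 ran from -2.19 to -0.72 at 24 h and -0.12 to 0.038 at 72 h. The count of listed genes called ran from 0 to 11 at 3 h, 1 to 6 at 24 h, 0 to 2 at 48 h and 0 to 9 at 72 h. At 16 h this leaves 1 array, which is assumed to vary like the other groups.

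Those counts also changed with other settings. Array weights gave 1 at 1 h, 10 at 3 h, 5 at 6 h, 3 at 16 h, 21 at 48 h and 20 at 72 h. All 32 arrays gave 0 at 3 h, 3 at 16 h and 0 at 48 h. Quantile normalization gave 2 at 3 h, 2 at 48 h and 8 at 72 h. The first spot alone gave 2 at 3 h and 0 at 48 h, and the second gave 0 at 48 h. The trended robust variance gave 0 at 48 h. The 2 groups alone gave 0 at 3 h and 0 at 24 h. Setting spots that differ by over 2 missing gave 8 at 72 h. The causes were not tested.

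Same-numbered arrays of different groups did not in general deviate together (median r = -0.00 over 94 pairs, -0.43 to 0.35). Arrays of other numbers gave a median r of 0.01 over 302 pairs (-0.39 to 0.44). These values cannot settle whether the numbers pair the samples, since a pairing need not shift all probes. With the replicate block the count was 1 at 3 h, 0 at 48 h and 1 at 72 h; of 45 named tests 17 were called without the block and 8 with it. Il2 and Ifng at 72 h were among the 8 (1.93, adjusted p = 0.0359, and -1.31, adjusted p = 0.0228).

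Over all probes, the 2 groups alone gave 1 call at 3 h, 0 at 24 h and 3 at 48 h, against 182, 215 and 72. Groups of 2 or 3 arrays limit every comparison, and a p that misses the threshold does not show that values were alike. The deposited ratios carry no spot brightness, so dim spots could not be told from bright ones.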
